A study of Rattus norvegicus with 8 samples.

Results

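The cytoplasmic ribosomal protein genes were followed in ATSC, mesenchymal stem cells grown from fat under the skin of Sprague-Dawley rats, all males. Genes were taken by symbol, as those beginning with Rpl or Rps without the ribosomal S6 kinases and without pseudogenes. By this rule 81 genes matched 117 of the 41012 probes. Of these, 80 genes with 116 probes had signals well above background on 3 or more arrays and were kept, among 20710 kept genes in all. The gene left out, Rps12l4, had a signal well above background on 1 of 8 arrays. The kept genes comprised 44 named for proteins of the large subunit, 29 named for proteins of the small subunit, and 7 paralogs or like-named loci (Rpl3l, Rpl22l1, Rpl36al1, Rpl37al2, Rpl37l1, Rpl39l1 and Rplp1l1). The probe used for each of the 80 genes was well above background on all 8 arrays.

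RNA had been labelled with Cy3 and hybridised to Agilent Whole Rat Genome arrays, with 1 array per sample. The groups were ATSC on livers that had undergone ischemia-reperfusion injury (IRI, n = 3), ATSC on liver without this injury (non-IRI, n = 4) and ATSC in culture (in vitro, n = 1). All 3 groups share the adipose origin of the cells, and the labels give no age, no interval after injury and no account of how cells on liver were recovered. The labels number the replicates without saying that they came from separate animals, so p-values measure the spread between these samples, which may be technical. The comparison of IRI with non-IRI sets samples of ATSC on injured liver against those on uninjured liver. That of liver with culture sets both against cultured ATSC. Neither separates ATSC from other cells that the liver samples may hold.

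Ribosomal proteins fold onto ribosomal RNA in the nucleolus to form the large subunit, which joins amino acids, and the small subunit, which reads the messenger RNA. Their messenger RNAs are among the most abundant in growing cells and commonly begin with a run of pyrimidines, the terminal oligopyrimidine (TOP) tract, through which mTOR signalling controls their translation. Myc raises transcription of the ribosomal RNA and of many assembly factors. Some genes in the family have paralogs with narrower tissue expression, such as Rpl3l, known from heart and skeletal muscle.

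The 5′ ends of the genes were read from RefSeq's table of promoters (rat, GRCr8), in which 64 of the 80 members were matched. A TOP tract was searched for on the strand of the gene as C followed by 4 bases that are each C or T. It stood exactly at the annotated start in 23 of the 64 members (35.9%), against 2.63% of all 27457 promoters. In the window from 10 bases before the start through the 20 bases from the start on, a match at any place was present in 49 members (76.6%), against 33.5% of all promoters. No match lay at the start of the 5 matched paralogs and like-named loci. The windows of members that the results turn on are printed 5′ to 3′, with the tract in capitals where it begins at the annotated start, to show which of them carry it.

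Rpl10a: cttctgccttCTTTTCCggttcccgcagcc
Rpl28: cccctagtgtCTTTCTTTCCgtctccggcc
Rplp0: caccgcacttCTCTCgccaggcgtcctcat
Rps10: gcacgccccttcctttccagcctccgcctc
Rpl29: tttctctttctcttccggtcccaggcgctg
Rpl6: ttacatcactagatggcgggtgaaaaggcg
Rpsa: ccgcgctaccctggaacgggtccgtacggc
Rpl34: tccttttcctCTTCCggggacggtgcttag
Rps26: ccgccgggtcCTCTTTCgagtcttggctcc
Rpl22: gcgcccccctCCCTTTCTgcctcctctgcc
Rpl22l1: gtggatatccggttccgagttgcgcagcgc
Rpl3l: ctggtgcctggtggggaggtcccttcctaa

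These windows lie at chr20:6390523-6390552 (+) for Rpl10a, chr1:78083513-78083542 (-) for Rpl28, chr12:46718371-46718400 (-) for Rplp0, chr20:5700725-5700754 (-) for Rps10, chr8:115947633-115947662 (+) for Rpl29, chr12:41011671-41011700 (-) for Rpl6 and chr8:128728869-128728898 (+) for Rpsa. Those of Rpl34, Rps26, Rpl22, Rpl22l1 and Rpl3l lie at chr2:221962264-221962293 (-), chr7:1643385-1643414 (-), chr5:168117951-168117980 (+), chr2:113683186-113683215 (+) and chr10:14258436-14258465 (+).

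Levels are log2 values of the processed signal relative to the 75th percentile of the array, and differences are between group means. That percentile was 156 to 291 intensity units on IRI arrays, 228 to 284 on non-IRI arrays and 177 on the in vitro array. IRI 1 to 3 and in vitro 1 lay on slide 1, and non-IRI 1 to 4 on slide 2, per the file headers, so slide and group cannot be told apart for IRI against non-IRI. Markers of other cell types were measured beside the family. Of all genes, 16.6% rose and 17.3% fell on liver against culture, and 0.406% rose and 2.78% fell in IRI against non-IRI. In the latter comparison 15.3% of all genes had an unadjusted p under 0.05 in either direction. The lists of cell types are short, so single calls in them say little. The mean level of 11 macrophage and Kupffer cell genes was 4.70 to 5.13 on IRI arrays, 3.63 to 4.84 on non-IRI arrays and -5.44 in vitro, and 10 of the 11 rose on liver against culture. The mean of 13 hepatocyte genes was 0.33 to 0.49 on IRI arrays, -3.17 to -1.43 on non-IRI arrays and -4.29 in vitro, and 9 of the 13 rose in IRI against non-IRI. The mean of 5 neutrophil genes was 0.29 to 1.24 on IRI arrays, -2.22 to -0.45 on non-IRI arrays and -5.04 in vitro. None of the 5 passed between IRI and non-IRI, but all 5 were higher at an unadjusted p under 0.05, and 4 rose on liver. The mean of 4 erythroid genes was -0.69 to 3.84 on IRI arrays, -3.13 to -1.10 on non-IRI arrays and -5.18 in vitro. None of these passed between IRI and non-IRI, all 4 were higher at an unadjusted p under 0.05, and 2 rose on liver. The mean of 6 mesothelial genes was 0.68 to 1.18 on IRI arrays, 1.26 to 2.21 on non-IRI arrays and -2.76 in vitro. All 6 had negative differences between IRI and non-IRI, of which that of Gpm6a passed (-1.74, limma adjusted p = 0.0437), and all 6 rose on liver. Of 9 T and NK cell genes 8 rose on liver and none passed between IRI and non-IRI (0 at an unadjusted p under 0.05). Of 3 endothelial, 2 B cell and 2 adipocyte genes, 1 in each list rose on liver and none passed between IRI and non-IRI (0 at an unadjusted p under 0.05). The mean of 15 mesenchymal stromal genes, markers of the labelled cell type, was 5.12 to 5.27 on IRI arrays, 4.23 to 5.40 on non-IRI arrays and 5.19 in vitro. Single stromal genes went both ways. On liver against culture 1 rose and 2 fell, with differences from -1.787 to 2.075. Between IRI and non-IRI none passed (1 lower at an unadjusted p under 0.05), with differences from -1.05 to 2.793. The part that RNA of these other cell types has in the differences below was not tested. In bulk samples, fewer cells of a type and less RNA per cell cannot be told apart.

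The ribosomal protein genes moved together from array to array, and the array that stood apart was IRI 1. Their median level was 8.18, 7.71 and 7.70 on IRI 1, 2 and 3, against 7.90, 7.94, 7.88 and 7.90 on non-IRI 1 to 4, and it was 8.39 in vitro. IRI 1 was therefore above every non-IRI array and the other IRI arrays below them. Relative to each gene's mean over the 7 liver arrays, the median deviation of the family was 0.36, -0.21 and -0.24 on IRI 1, 2 and 3, between -0.02 and 0.03 on the non-IRI arrays and 0.36 in vitro. The corresponding medians over all genes were 0.06, -0.03 and -0.04 on the IRI arrays, between -0.03 and 0.05 on the non-IRI arrays and 0.21 in vitro.

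**Figure D1:**
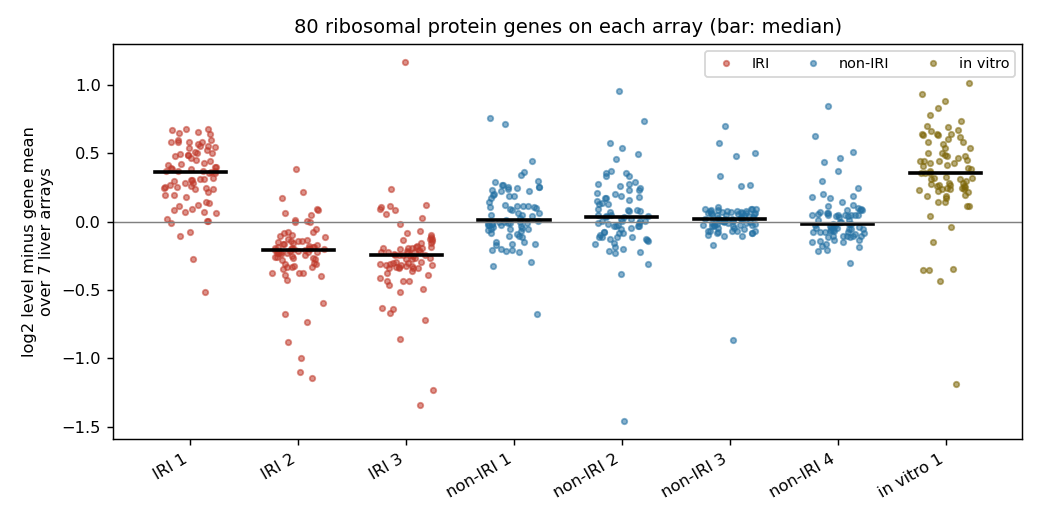
Each point is 1 of 80 ribosomal protein genes on 1 array (x axis, grouped by colour), plotted as its log2 level minus its mean over the 7 liver arrays (y axis), and black bars are medians. The family sat at a median of 0.36 on IRI 1 and 0.36 in vitro, at -0.21 and -0.24 on IRI 2 and 3, and within 0.03 of 0 on the 4 non-IRI arrays.

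Of the 78 members measured on all 8 arrays, IRI 1 was the highest of the 3 IRI arrays for 74 (94.9%), a pattern held by 48.8% of all genes. IRI 1 was the highest of the 7 liver arrays for 55 members (70.5%, against 21.5% of all genes), and IRI 2 and IRI 3 both lay below all non-IRI arrays for 57 (73.1%, against 17.8%). The median SD over members was 0.37 in IRI (n = 3) and 0.12 in non-IRI (n = 4), where over all genes it was 0.25 in IRI and 0.30 in non-IRI. IRI 2 and IRI 3 differed by a median of 0.06 over members and 0.18 over all genes, in absolute value. The members thus lay close together on IRI 2 and 3 and within non-IRI, and IRI 1 set their spread in IRI. IRI 1 and the in vitro array, where the family was highest, also had the lowest 75th percentiles of signal (156 and 177 intensity units). Under quantile normalization, which gives every array the same distribution of signals, the median deviation was 0.02 on IRI 1, -0.09 and -0.12 on IRI 2 and 3, and -0.07 in vitro, so that neither array stood above the others.

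Few ribosomal protein genes passed the test between injured and uninjured liver. In IRI against non-IRI, 2 of 80 members fell at an adjusted p under 0.05 (limma), 0 rose and 78 did not pass. Among all 20710 genes 3.19% were called, with 84 that rose (0.406%) and 576 that fell (2.78%), so the members' share of 2.5% lay near the background. At an unadjusted p under 0.05, 0 members were higher and 5 lower, where 15.3% of all genes passed in either direction. The median difference was -0.04 over the members and 0.01 over all genes, and 33 members were positive and 47 negative, where 51.5% of all genes were positive. It was -0.03 for the 44 large subunit genes and -0.04 for the 29 small subunit genes. Without IRI 1 the median was -0.24 and without IRI 2 or IRI 3 it was 0.04 or 0.06, so the sign of the family's difference rested on single arrays.

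The gene for a large subunit protein that fell was Rpl34. Its level was 3.20, 2.48 and 2.25 on IRI arrays, against 4.24, 4.02, 4.05 and 4.10 on non-IRI arrays, and 3.13 in vitro. All IRI arrays lay below all non-IRI arrays, and the in vitro array, on the same slide as IRI, lay among the IRI arrays. The means were 2.64 ± 0.50 in IRI (SD, n = 3) and 4.10 ± 0.10 in non-IRI (SD, n = 4), a difference of -1.46 (SE 0.24, limma adjusted p = 0.0156). Rpl34 kept an adjusted p under 0.05 in 15 of 21 alternatives. Without IRI 2, IRI 3, non-IRI 1 or non-IRI 4 the limma adjusted p was 0.0762, 0.0718, 0.0512 or 0.0525, and the replicate block gave 0.0635. With normexp background correction, under which no gene of the array passed, it was 0.735.

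The other gene that fell was Rpl37al2, a locus that RefSeq names as like Rpl37a, whose protein belongs to the large subunit. Its level was -0.75, -1.38 and -1.58 on IRI arrays, against 0.48, 0.50, 0.46 and 0.61 on non-IRI arrays, and -0.67 in vitro. The groups did not overlap, and the in vitro array again lay near the IRI arrays. The difference was -1.75 (SE 0.21, limma adjusted p = 0.0047), called in 19 of 21 alternatives, and not with normexp (adjusted p = 0.387). With the replicate block it was -1.71 at an adjusted p of 0.0504. Against in vitro, Rpl37al2 was higher by 1.18 in non-IRI, across slides (limma adjusted p = 0.0221), and differed by -0.57 in IRI, within slide 1 (adjusted p = 0.218). A probe for such a locus can also bind transcripts of near-identical copies. Rpl37a itself had 9.54, 8.72 and 8.70 on IRI arrays, against 9.27, 8.91, 9.12 and 8.97 on non-IRI arrays, which overlap, and its difference of -0.08 did not pass (limma adjusted p = 0.919).

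All IRI arrays lay below all non-IRI arrays for 5 of 78 members (6.41%, against 9.46% of all genes), which were Rpl34, Rpl37al2, Rps26, Rplp1l1 and Rpl22l1. On every liver array these 5 read below the family's median level, which was 7.70 to 8.18. All but Rpl22l1 rested on 1 kept probe. The dimmest was Rps26, around the median of all spots, which was -3.65 to -3.35 on liver arrays. For Rps26, of the small subunit, the level was -3.41, -4.51 and -4.05 on IRI arrays, against -3.16, -2.96, -2.91 and -2.90 on non-IRI arrays, and -3.77 in vitro. The difference of -1.01 did not pass (SE 0.26, limma adjusted p = 0.0943), but it was -1.30 without IRI 1 (adjusted p = 0.0185). Rplp1l1, a locus like the stalk protein gene Rplp1, had 5.62, 4.74 and 4.98 on IRI arrays, against 5.72, 6.57, 5.71 and 5.99 on non-IRI arrays, and 5.27 in vitro (difference -0.88, SE 0.29, limma adjusted p = 0.192). For 4 of these 5 genes all arrays of slide 1, in vitro included, lay below all arrays of slide 2. That pattern held for 5.13% of members and 6.02% of all genes.

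Rpl22l1 was the member of the 5 whose in vitro array did not side with IRI. It is the paralog of Rpl22, a large subunit protein that binds RNA, and in mouse Rpl22 is known to repress it. Its level was 1.13, 0.56 and 0.38 on IRI arrays, against 1.59, 1.73, 1.71 and 1.53 on non-IRI arrays, and 1.67 in vitro. The difference between IRI and non-IRI was -0.95 (SE 0.20, limma adjusted p = 0.0512), just outside the threshold, and it passed in 8 of 21 alternatives, with adjusted p from 0.00347 to 0.735. Between arrays of slide 1, IRI was lower than in vitro by a difference of -0.99 (SE 0.31, limma adjusted p = 0.0463), whereas non-IRI minus in vitro was -0.03 (adjusted p = 0.943). Both SE and p took their spread from the fit over all 8 arrays, slide 2 included. Its other probe gave 1.14, 0.58 and 0.48 on IRI arrays, against 1.24, 1.87, 1.30 and 1.38 on non-IRI arrays, and 1.64 in vitro. There the difference was -0.72 and did not pass (adjusted p = 0.191 in a fit over probes). Rpl22 had 5.57, 5.06 and 4.92 on IRI arrays, against 5.52, 5.79, 5.49 and 5.67 on non-IRI arrays, and 5.73 in vitro, so that IRI 1 overlapped non-IRI (difference -0.43, SE 0.20, limma adjusted p = 0.349).

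**Figure D2:**
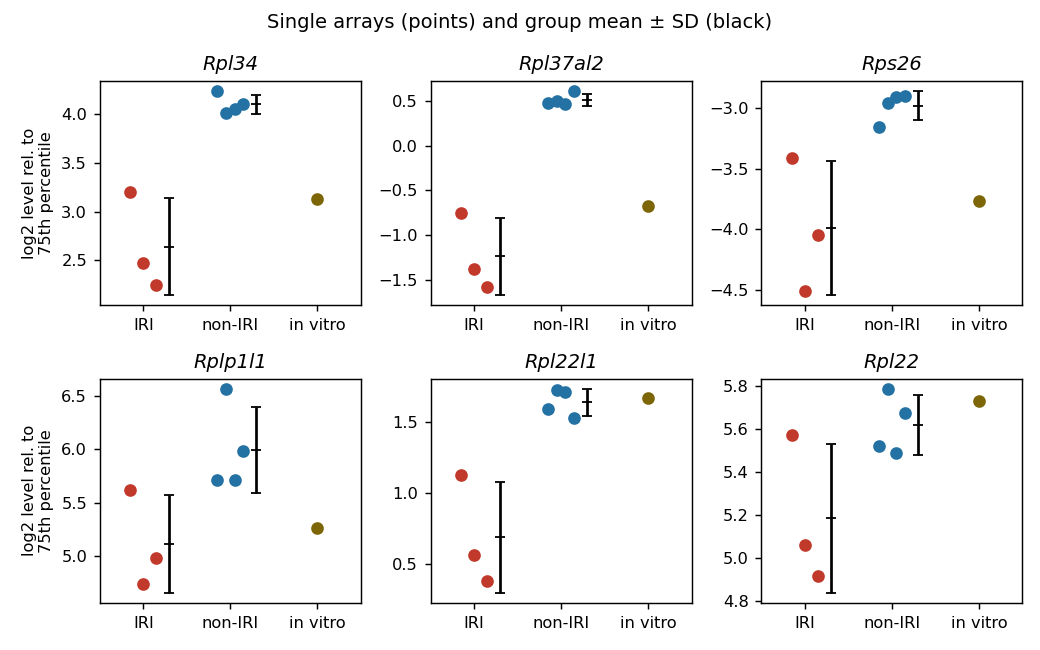
Log2 levels of 6 genes relative to the array's 75th percentile (y axis, a scale of its own in each panel) on single arrays (points) by group (x axis), with group means ± SD in black for IRI (n = 3) and non-IRI (n = 4). The in vitro point lies near the IRI points for Rpl34 (3.13), Rpl37al2 (-0.67), Rps26 (-3.77) and Rplp1l1 (5.27) and with the non-IRI points for Rpl22l1 (1.67) and Rpl22 (5.73).

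In the opposite direction, all IRI arrays lay above all non-IRI arrays for Rplp0 and Rpl7a, 2.56% of members against 6.66% of all genes. Rplp0, which encodes the base of the large subunit's stalk, had 4.34, 4.45 and 4.36 on IRI arrays, against 3.97, 4.29, 4.28 and 4.20 on non-IRI arrays (difference 0.20, SE 0.15, limma adjusted p = 0.599). Rpl7a, of the large subunit, had 9.20, 8.85 and 8.96 on IRI arrays, against 8.84, 8.62, 8.80 and 8.63 on non-IRI arrays (difference 0.28, SE 0.16, adjusted p = 0.439). Its other probe went the other way, with 8.97, 8.31 and 8.29 on IRI arrays, against 8.85, 8.52, 8.74 and 8.59 on non-IRI arrays (difference -0.15, adjusted p = 0.794 in a fit over probes), and there IRI 1 lay above all non-IRI arrays and IRI 2 and 3 below them. For both genes the in vitro array, at 4.97 and 9.46, also lay above all non-IRI arrays, as it did with IRI for 4.21% of all genes. The largest positive difference was that of Rpl39l1, a locus named as like Rpl39, whose level was -2.78, -3.07 and -1.70 on IRI arrays, against -3.55, -2.85, -3.74 and -2.40 on non-IRI arrays. These groups overlapped, and the difference of 0.62 did not pass (SE 0.42, limma adjusted p = 0.555).

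Several ribosomal protein genes commonly used as references for expression did not pass in this comparison. For Rpl13a, of the large subunit, the mean was 8.48 ± 0.54 in IRI (SD, n = 3) and 8.38 ± 0.18 in non-IRI (SD, n = 4). Rps18, of the small subunit, had levels of 9.39, 8.61 and 8.58 on IRI arrays, against 8.86, 8.69, 8.78 and 8.73 on non-IRI arrays. In both, IRI 1 was the highest liver array and IRI 2 and 3 the lowest of the 7, and the differences were 0.10 (SE 0.26) and 0.10 (SE 0.22). Rps6, the small subunit protein that S6 kinases phosphorylate, had 9.83, 9.04 and 9.01 on IRI arrays, against 9.47, 9.16, 9.37 and 9.07 on non-IRI arrays (difference 0.03, SE 0.24). Of the 3 stalk protein genes, Rplp1 and Rplp2 had differences of -0.03 and -0.01. Rpl5 and Rpl11, whose proteins bind 5S ribosomal RNA and, when free, the p53 regulator Mdm2, had differences of 0.12 (SE 0.15) and -0.03 (SE 0.19).

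Against culture, 7 of 80 members fell on liver, 0 rose and 73 did not pass (limma, adjusted p under 0.05). Liver here is the mean of the IRI and non-IRI means, and the spread of the single in vitro array was taken to equal that of the liver groups. Of all 20699 genes tested, 33.9% were called, with 3433 that rose (16.6%) and 3587 that fell (17.3%), so the members' share of 8.75% lay below the background. At an unadjusted p under 0.05, 1 member was higher and 14 lower, where 45.6% of all genes passed in either direction. The median difference was -0.36 over the members, with 73 negative and 7 positive, and -0.22 over all genes, of which 40.5% were positive. It was -0.43 for the large subunit, of which 5 of 44 fell, -0.32 for the small subunit, of which 2 of 29 fell, and 0.13 for the 7 paralogs and like-named loci, of which none passed. The in vitro array lay above all liver arrays for 32 of 78 members (41%, against 39.2% of all genes), and below all of them for 1, Rpl3l (1.28%, against 25.1%).

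The member with the smallest p was Rpl10a, of the large subunit. Its level was 7.48, 7.17 and 6.99 on IRI arrays, 6.90, 7.10, 7.06 and 7.08 on non-IRI arrays, and 8.04 in vitro. Every liver array lay below the in vitro array, with a difference of -0.92 (SE 0.23, limma adjusted p = 0.0195). Rpl10a passed in 17 of 20 alternatives. Between IRI and in vitro, both on slide 1, its difference was -0.83 (adjusted p = 0.0413 in the same fit over 8 arrays).

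Both small subunit genes that fell had similar differences. Rps10 had 6.73, 6.35 and 6.38 on IRI arrays, 6.34, 6.71, 6.47 and 6.41 on non-IRI arrays and 7.32 in vitro (difference -0.83, SE 0.24, limma adjusted p = 0.0306). Rpsa, whose protein also serves as a laminin receptor at the cell surface, had 6.07, 5.49 and 5.81 on IRI arrays, 5.49, 5.97, 5.61 and 5.54 on non-IRI arrays and 6.59 in vitro (difference -0.87, SE 0.28, adjusted p = 0.0454). In both genes the in vitro array lay above all 7 liver arrays. Rps10 passed in 12 of 20 alternatives and Rpsa in 10. With the mean over all kept probes of a gene, Rps10 was at -0.66 and did not pass (limma adjusted p = 0.232). The other 4 genes that fell, all of the large subunit, were Rpl28 (-0.73), Rplp0 (-0.69), Rpl6 (-0.66) and Rpl29 (-0.63), with limma adjusted p from 0.0334 to 0.0485. These 4 passed in 11, 11, 9 and 9 of 20 alternatives, in the same order. Within slide 1, IRI against in vitro called 3 members lower (Rpl10a, Rps10 and Rpl22l1) and 0 higher, where 29% of all genes were called and 14.3% were lower. There 1 member was higher and 12 lower at an unadjusted p under 0.05 (42.1% of all genes in either direction). Of the 80 differences 78 were negative, with a median of -0.39, where 39% of all genes were positive. Across slides, non-IRI against in vitro called 8 members lower and 1, Rpl37al2, higher, where 34.6% of all genes were called. At an unadjusted p under 0.05, 3 members were higher and 14 lower there (45.8% of all genes in either direction), and 10 differences were positive (41.9% of all genes).

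Single arrays changed these counts. Without IRI 1, the array with high ribosomal protein levels, 16 members fell on liver (20%, against 18% of all genes), so their share was then near the background. Without IRI 2, IRI 3, non-IRI 1 or non-IRI 4 only Rpl10a did (1.25%, against 12.2% to 14.9% of all genes). It was 10 members without non-IRI 2 (12.5%, against 19.9%) and 4 without non-IRI 3 (5%, against 16.1%). Rps15, of the small subunit, had the most negative difference, -0.97, but did not pass (SE 0.59, limma adjusted p = 0.238). Its level was 5.04, 4.61 and 4.50 on IRI arrays, 4.45, 2.94, 4.73 and 4.51 on non-IRI arrays and 5.41 in vitro, so non-IRI 2 was far below the other arrays.

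The largest positive difference between liver and culture was that of Rpl3l, the muscle paralog of Rpl3. Its level was -0.31, -1.54 and -0.74 on IRI arrays, -0.46, -1.03, -0.54 and -0.99 on non-IRI arrays and -1.98 in vitro. Every liver array lay above the in vitro array, but the difference of 1.18 did not pass (SE 0.43, limma adjusted p = 0.0673), except without IRI 2 (1.35, adjusted p = 0.0224) and with array weights. Rpl3, of the common ribosome, had 5.00, 5.16 and 5.19 on IRI arrays, 4.91, 5.25, 5.05 and 4.97 on non-IRI arrays and 5.68 in vitro, a difference of -0.60 that did not pass either (SE 0.21, adjusted p = 0.0621). Rpl3 passed in 5 of 20 alternatives and Rpl3l in 2. The sign of the difference was thus positive for the paralog and negative for Rpl3, and the contrast between them was not tested. Rpl36al1, a locus like Rpl36a, had a difference of 0.13 where Rpl36a had -0.14, and Rpl37l1, like Rpl37, had -0.15 (limma adjusted p from 0.713 to 0.758).

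**Figure D3:**
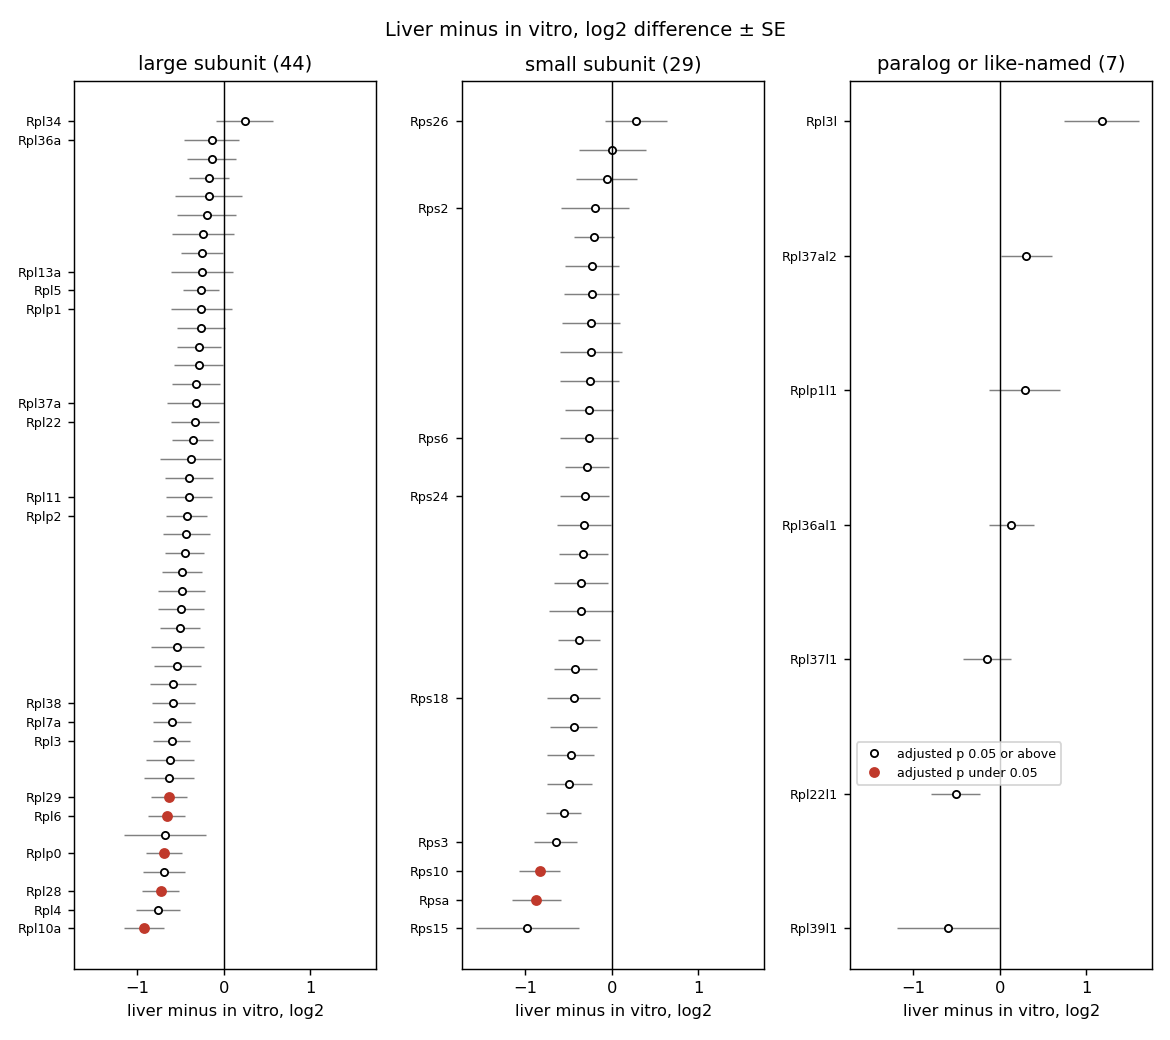
Differences in log2 level between liver (mean of the IRI and non-IRI means) and in vitro (x axis) for 44 large subunit genes, 29 small subunit genes and 7 paralogs or like-named loci (rows, with names for the genes described in the text), with bars for the SE from limma. The 7 filled points have an adjusted p under 0.05 and lie between -0.92 (Rpl10a) and -0.63 (Rpl29), and 73 of the 80 differences are below 0.

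The direction of the family's difference between liver and culture depended on the scaling between arrays. Relative to the 75th percentile the median was -0.36, with 7 members lower. With each array centred on its median it was -0.66, with 26 lower (32.5%, against 29.1% of all genes, which is near the background), and the median over all genes moved by a similar amount, to -0.52. With quantile normalization the family's median was 0.06, with 51 members positive and 0 called by limma (3 at an unadjusted p under 0.05), where 29.4% of all genes were called, while the median over all genes was -0.17. The family was thus below the median of all genes under the percentile and median scalings and above it under quantile normalization. Most of its probes are bright, and the spread of the bright signals differed between arrays. The 99th percentile lay 7.27 log2 units above the 75th in vitro, against 6.67 to 6.89 on IRI arrays and 6.75 to 6.88 on non-IRI arrays. The part of this in the family's difference was not tested. Under quantile normalization the 7 genes that fell kept a negative sign, from -0.49 for Rpl10a (limma adjusted p = 0.0987) to -0.19 for Rpl29, and Rps6, Rps18 and Rpl13a turned positive (0.13, 0.02 and 0.17).

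With the percentile scaling, genes that build and use ribosomes were called lower on liver in larger shares than the 8.75% of ribosomal proteins and the 17.3% of all genes. Of 58 ribosome biogenesis genes, 27 fell on liver and 0 rose, with a median difference of -0.84. Pwp1, needed for ribosomal RNA synthesis, had -1.41, -1.09 and -1.27 on IRI arrays, -1.28, -1.15, -1.19 and -1.18 on non-IRI arrays and 0.02 in vitro (difference -1.25, limma adjusted p = 0.00316). Of 33 initiation factor genes 13 fell and 0 rose (median -0.63), and of 13 elongation and release factor genes 7 fell and 0 rose (median -0.88). Eef2, which moves the ribosome along the messenger RNA, had 6.71, 6.64 and 6.77 on IRI arrays, 6.13, 5.85, 6.30 and 6.19 on non-IRI arrays and 7.53 in vitro (difference -1.12, limma adjusted p = 0.0074). Eif3c, a subunit of an initiation factor that binds the small subunit, had 5.99 to 6.12 on IRI arrays, 5.99 to 6.20 on non-IRI arrays and 7.39 in vitro (difference -1.33, adjusted p = 0.00193). In all 3 genes the in vitro array stood above every liver array by more than the liver arrays differed among themselves, except that for Eef2 the liver arrays spanned a wider range than the gap.

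Among 66 genes for mitochondrial ribosomal proteins, which form the separate ribosome of that organelle, 30 fell on liver and 1 rose (median -0.70). Mrpl45, which anchors that ribosome to the inner membrane, had 2.39, 2.38 and 2.37 on IRI arrays, 1.81, 2.16, 2.09 and 2.05 on non-IRI arrays and 3.36 in vitro (difference -1.16, limma adjusted p = 0.00468). The medians of these 4 lists stayed negative under quantile normalization, at -0.69 for biogenesis (10 of 58 lower), -0.39 for initiation (5 of 33), -0.50 for elongation (3 of 13) and -0.40 for the mitochondrial ribosome (11 of 66), with 0 higher in each. These shares were 17.2%, 15.2%, 23.1% and 16.7% in the same order, against 14% of all genes called lower under that scaling. The excess in called shares over all genes was thus smaller than with the percentile scaling. All 4 medians still lay below the median over all genes, which was -0.17, and 15.4% of all genes were called higher there. On slide 1 alone, IRI against in vitro, the medians were -0.81, -0.71, -0.77 and -0.69 in the same order of lists. The lists were not compared with the ribosomal proteins by a test.

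**Figure D4:**
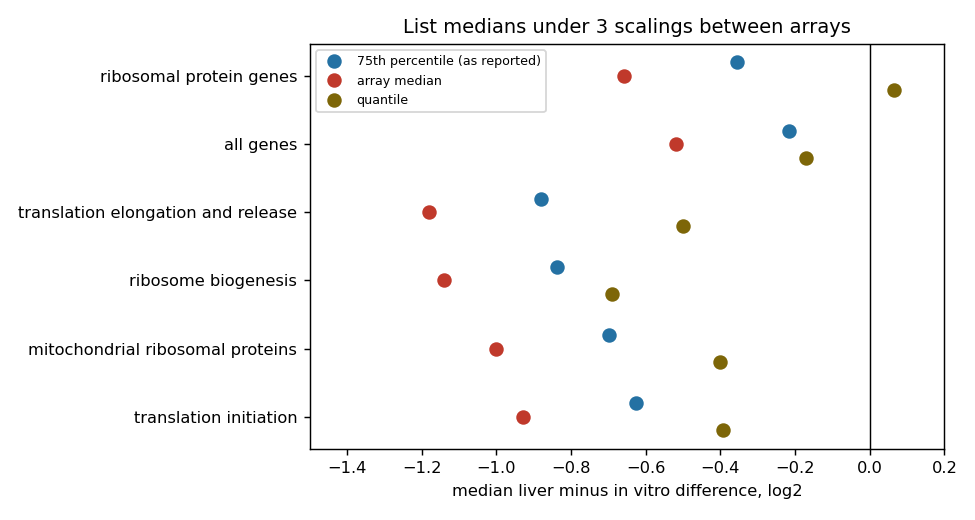
Median log2 difference between liver and in vitro (x axis) for 80 ribosomal protein genes, all genes and 4 related lists (rows) under 3 scalings between arrays (colours). The ribosomal protein median is -0.36, -0.66 and 0.06 with the 75th percentile, the array median and quantile normalization, and the 4 related lists stay between -1.18 and -0.39.

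Of 17 genes of the mTOR and Myc regulators, 4 fell on liver (23.5%, against 17.3% of all genes) and 1 rose (5.88%, against 16.6%), so the falls were near the background. Myc had 2.42, 3.15 and 2.50 on IRI arrays, 2.96, 3.01, 2.97 and 2.72 on non-IRI arrays and 4.75 in vitro (difference -1.95, limma adjusted p = 0.00213). Rps6ka1, a kinase that phosphorylates Rps6, was the gene that rose, with 5.89, 5.25 and 5.47 on IRI arrays, 5.48, 4.66, 5.50 and 4.80 on non-IRI arrays and 2.65 in vitro (difference 2.68, adjusted p = 0.00177). In both genes all liver arrays lay on the same side of the in vitro array. In IRI against non-IRI, 0 genes of the biogenesis, initiation, elongation and regulator lists were called. Of 66 mitochondrial ribosomal protein genes 1 fell (1.52%, against 2.78% of all genes). At an unadjusted p under 0.05, 2 biogenesis genes were higher and 1 lower. The counts higher and lower were 0 and 3 for initiation, 1 and 1 for elongation, 1 and 3 for the regulators and 1 and 2 for the mitochondrial ribosome. Among all genes 15.3% passed at that level in either direction. Of the ribosomal proteins outside the Rpl and Rps names, Fau and Rack1 differed between liver and culture by -0.15 and -0.67, without passing (limma adjusted p = 0.742 for Fau and 0.124 for Rack1).

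For 27 members more than 1 probe was kept, and the probe with the highest mean represented the gene. Probes of a gene differed in the sign of IRI minus non-IRI for 13 of the 27 and in the sign of liver minus in vitro for 2. Their range was above 0.5 for 2 genes in IRI minus non-IRI and for 3 in liver minus in vitro. Rpl28 showed the widest range in IRI minus non-IRI, with 0.14 for the probe used and -0.83 for a dim probe that was well above background on 5 of 8 arrays. For Rps2, of the small subunit, 4 probes gave differences between liver and culture from -0.81 to -0.18. Of these, the probe at -0.81 was the only one below the threshold in a fit over probes (limma adjusted p = 0.0434), and the probe used gave -0.19.

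Among the 5′ ends printed, of the genes that fell against culture Rpl10a, Rpl28 and Rplp0 begin with a tract at the annotated start. Rps10, Rpl29, Rpsa and Rpl6 have no match there. In Rps10 and Rpl29 a pyrimidine run crosses the start, but the first base is T and not C. Rpl22 begins with a tract and its paralog Rpl22l1 does not. The median difference between liver and culture was -0.33 for the 23 members with the tract at the start and -0.43 for the 41 without it, and that between IRI and non-IRI was -0.08 and -0.01. A match describes these letters at an annotated start, and the array measured no translation.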

How the data were processed

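The authors deposited 8 scanner files with an intensity per spot, background-subtracted within the array by Feature Extraction 11.0.1.1 per the file headers (9.1 per the submitters' processing notes). The authors' deposited value table is in log2 units relative to each array's 75th percentile and centred per probe, as its comparison with the scanner files showed, and served as an alternative. Levels were computed as log2 of the processed signal minus that percentile over 43379 non-control spots. Between 45 and 117 flagged spots per array were left out, which removed non-IRI 1 for Rpl8 and Rpl19. No non-control spot was saturated. Arrays give no counts, so their number limits the precision. Symbols came from RefSeq accessions (17541 of 41012 probes).

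The 3 group means of all kept genes were fitted over 8 arrays (limma 3.58.1, R 4.3.3), with p-values adjusted by Benjamini and Hochberg's method at 0.05. The script was tested on simulated data. The members and lists were chosen with earlier results of these data known. Genes were named by rule: members past the threshold in IRI against non-IRI, the 6 largest positive and 6 largest negative differences of liver against in vitro, paralogs with their parents, and 5 set members. From the biogenesis, initiation, elongation, mitochondrial ribosome and regulator lists, the rule took genes by smallest p-value in a comparison, so those named need not be typical of their lists. Rpl29, Rpl6, Rplp1, Rplp2, Rpl5, Rpl11, Rpl7a, Rpl37a, Rpl37l1, Rpl39l1, Rps2 and the genes flagged at the end were named after their values were seen. Some items are not reported here. No probe here carried the symbols Rpl26, Rpl37 or Rps9. Same-numbered IRI and non-IRI arrays deviated together only weakly (r = 0.194, 0.171 and 0.105 across genes, which are not independent). Differently numbered pairs had r from -0.194 to 0.0871. The replicate number was therefore also fitted as a block, as an alternative. Alternatives covered scaling, background correction, filter, probe rule, genes tested, prior, array weights, value table, slide, replicate block and leaving out each array. The normexp background correction used the median signal of the spots, as the mean signal is not used here.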

Additional observations from a re-analysis of the deposited data

Results flagged for a closer look

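In 4 of 77 ribosomal protein genes examined that had a value on all 4 non-IRI arrays, a single non-IRI array lay far from the others by Dixon's criterion, which chance meets in about 1 group of 20. The count of 4 in 77 lies near that rate. Non-IRI 2 was the array in 3 of the 4, and genes on the same array are not independent. It was low for Rps15, at 2.94 against 4.45 to 4.73 on the other non-IRI arrays. It was high for Rps3, which encodes a small subunit protein at the messenger RNA entry, at 8.31 against 7.89 to 7.93. For Rps24 it was high at 8.41 against 8.36 to 8.37. For Rpl38, of the large subunit, non-IRI 1 was low at 7.26 against 7.36 to 7.38. IRI, with 3 arrays, and in vitro, with 1, could not be examined in this way.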

How the results depend on the processing

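In IRI against non-IRI, the 2 members lower became 0 with normexp background correction and with the replicate block (2 and 4 at an unadjusted p under 0.05), and 7 with array weights, which also called 1 higher (Rpl4), 10% of members in all against 12.9% of all genes. Leaving out each array gave 1 to 4 lower (1.25% to 5% of members, against 1.3% to 2.97% of all genes). It gave 0 higher (against 0.106% to 0.444% of all genes) and a median from -0.24 to 0.06. The median was 0.35 with normexp, where it was -0.14 over all genes. The replicate block moved calls from 660 to 273 over all genes.

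In liver against in vitro, the 7 members lower became 26 with the array median (median -0.66), 27 with array weights (with 1 higher, Rpl3l), 13 with an intensity trend, 12 with symbols only, 3 with the mean over probes, 3 within slide 1, and 0 with quantile normalization (median 0.0639), normexp or no filter on dim probes (3, 0 and 14 at an unadjusted p under 0.05). Leaving out each array gave 1 to 16 lower, 0 or 1 higher, and a median from -0.47 to -0.30. Fewer or more genes tested changes the adjustment in the filter and symbol settings. For the others the cause was not tested. The share of all genes called lower, 17.3% as reported, moved too: it was 29.1% with the array median, 28.8% with array weights, 19.2% with the trend, 26.5% with symbols only, 16.8% with the mean over probes, 14.3% within slide 1, 14% with quantile normalization, 1.18% with normexp and 7.35% with no filter, against 32.5%, 33.8%, 16.7%, 15%, 3.75%, 3.75%, 0%, 0% and 0% of members in the same order. Leaving out each array gave 12.2% to 19.9% of all genes lower.

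Of the named genes' values, 1637 stayed on their side of the threshold, 69 lost and 57 gained a call, and 0 called values changed sign. Normexp without bright background spots, chosen after seeing the data, gave 3 lower in IRI against non-IRI and 7 in liver against in vitro. These were 3.75% and 8.75% of members, against 1.69% and 14.7% of all genes. A slide block could not be fitted for IRI against non-IRI. With 3, 4 and 1 arrays, differences as small as the family's medians lie within the spread between arrays.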
